A study of Mus musculus with 24 samples.

Results

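*Nnt*, *Ide*, *Fgfbp3*, *Wdfy1*, *Crb1* and *Cyfip2* are 6 genes known to differ between the C57BL/6N and C57BL/6J substrains of the laboratory mouse. They were chosen by symbol and matched to 6 of the 36605 genes in a table of hippocampal read counts. The table covers 24 mice, 3 females and 3 males of each of 4 genotypes. Egr1wtNesCre- mice (label code wt (-)) carry neither modification. Egr1wtNesCre+ mice (wt (+)) carry a transgene that expresses Cre recombinase from the Nestin promoter, a driver active in precursors of neurons and glia. Egr1fNesCre- mice (FF (-)) carry *Egr1* alleles flanked by loxP sites, called floxP here. Egr1fNesCre+ mice (FF (+)) carry both, which removes *Egr1* from that lineage (Egr1cKO). The study's methods describe the floxed strain as C57BL/6N and the Nestin-Cre strain as a B6.Cg stock of the Jackson Laboratory with the suffix /J. They do not give the substrain make-up of each mouse. The labels give no age, and they number the Egr1wt mice in an HP40 series and the Egr1f mice in an HP49 series, so floxP and the number series cannot be told apart.

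C57BL/6N and C57BL/6J mice have been bred apart for many generations and have collected fixed differences, some of which change RNA levels and some only the protein sequence. C57BL/6J carries a deletion inside *Nnt*, which encodes the transhydrogenase of the inner mitochondrial membrane that makes NADPH. *Ide* and *Fgfbp3* lie in a stretch of chromosome 19 with a copy number gain that segregates in C57BL/6J stocks. *Crb1* and *Cyfip2* carry small coding changes in C57BL/6N, a single base deletion known as rd8 and a serine to phenylalanine change, which counts per gene do not read. *Wdfy1* encodes a FYVE and WD repeat protein of endosomes that takes part in signaling from Toll-like receptors 3 and 4. A bulk level does not separate fewer cells of a type from less RNA per cell.

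Total counts per mouse ran from 18025168 to 34955004 with a median of 22744000, and levels are given as CPM, counts normalized to library size with TMM factors. *Egr1*, the targeted gene, was at 4.88 to 10.3 CPM in the 6 Egr1fNesCre+ mice and at 47.6 to 149.6 CPM in the other 18. No library thus went against its label as Egr1fNesCre+ or not. The *Egr1* levels of the other genotypes overlapped, so a swap of labels among those genotypes would not show here. The labels also give the cell type as endocrine, but of 7 pituitary markers the summed level was 0.893 to 3.82 CPM, against 778.8 to 1685 CPM for 6 markers of hippocampal neurons. The sum of 6 choroid plexus markers, 4 of them counted in all 24 mice, was 30.1 to 320.0 CPM in 20 mice and 805.6 to 2019 CPM in 4, namely Egr1wtNesCre+ female 1, Egr1fNesCre- males 2 and 3 and Egr1fNesCre+ male 2. Among the 20, Egr1wtNesCre+ male 3 was highest at 320.0 CPM, and the next was Egr1fNesCre+ male 1 at 78.8 CPM. *Ttr*, the most variable of these markers, reached 1897 CPM, and tests on *Wdfy1* are given below with and without these 4 mice.

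None of the 6 genes passed the test in any of 8 comparisons, at an adjusted p of at most 0.05 in edgeR's quasi-likelihood test with Benjamini-Hochberg adjustment over all genes tested. In the floxP term, which is also HP49 against HP40, 0 of 6 were called and 0 of 6 had an unadjusted p under 0.05, against 1 gene called of 18766 (0.00533%), which was *Egr1*. In the Nestin-Cre term 0 of 6 were called and 1, *Wdfy1*, had an unadjusted p under 0.05, against 9 called of 18766 (0.048%). DESeq2 called 0 of 6 in the floxP term, with 9 genes called in all. In the Nestin-Cre term it called 1 of 6, *Wdfy1*, against 18 called of 33043 genes (0.0545%). For the floxP by Nestin-Cre interaction edgeR called 0 of 6 and DESeq2 1 of 6, *Cyfip2*, with 1 of 18766 genes (0.00533%) and 335 of 3250 (10.3%) called in all. Shares for DESeq2 are over the genes to which it gave an adjusted p. Its own filtering sets that number for each comparison, so these shares and those of edgeR are not over the same genes. No DESeq2 share is given for the floxP term, the sex term or Egr1fNesCre- against Egr1wtNesCre-, only the number of genes called. In the sex term both tools called 0 of 6, and none had an unadjusted p under 0.05 in edgeR. There edgeR called 14 genes in all (0.0746%) and DESeq2 17.

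**Figure D1:**
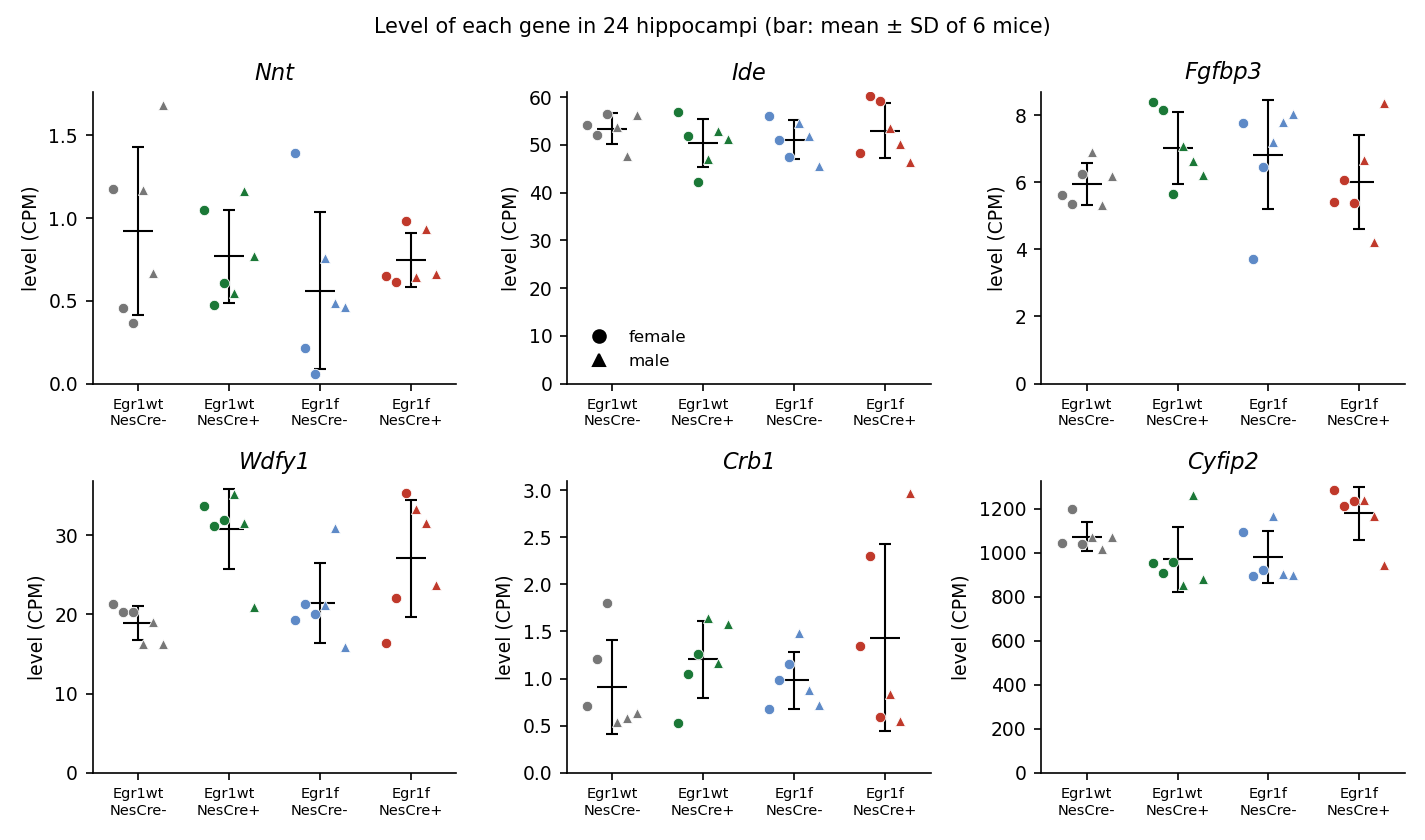
Level in CPM (y axis, linear, from 0) of each of the 6 genes in the 4 genotypes (x axis), 1 point per mouse, circles for females and triangles for males, with bars for the mean ± SD of 6 mice. *Wdfy1* lies between 31.1 and 35.2 CPM in 5 of 6 Egr1wtNesCre+ mice and between 16.2 and 21.4 CPM in all 6 Egr1wtNesCre- mice, and Egr1wtNesCre+ male 3, at 20.9 CPM, lies within the range of the latter.

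*Wdfy1* was the gene whose levels fell into a pair of ranges. It is annotated at 1:79702262-79776143 on the minus strand (GRCm38), with 6488 exonic bases, of which 126 at its start are shared with the antisense gene *Mrpl44*. In 15 mice *Wdfy1* was at 15.9 to 23.7 CPM and in 9 mice at 30.9 to 35.3 CPM. The step between them was 0.37 on the log2(CPM + 1) scale, or 33.1% of the whole range, and the next largest step was 18.1%. Of 18766 genes kept by the filter, 15 (0.0799%) had a largest step of at least that share with at least 6 mice on each side, a rule set after the *Wdfy1* values were seen.

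In the HP40 series, *Wdfy1* was at 33.7, 31.1 and 31.9 CPM in Egr1wtNesCre+ females 1 to 3, mice HP4046, HP4047 and HP4048. Egr1wtNesCre+ males 1 to 3, mice HP4049, HP4051 and HP4052, were at 35.2, 31.6 and 20.9 CPM. The upper range thus held 5 of the 6 Egr1wtNesCre+ mice, and male 3 was the exception. Egr1wtNesCre- females 1 to 3, mice HP4045, HP4055 and HP4056, had *Wdfy1* at 21.4, 20.3 and 20.3 CPM. Egr1wtNesCre- males 1 to 3, mice HP4042, HP4053 and HP4054, were at 16.2, 19.0 and 16.3 CPM. No Egr1wtNesCre- mouse was in the upper range, and the genotypes overlapped only through Egr1wtNesCre+ male 3, which was below Egr1wtNesCre- female 1.

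In the HP49 series, *Wdfy1* was at 16.4, 22.1 and 35.3 CPM in Egr1fNesCre+ females 1 to 3, mice HP4944, HP4945 and HP4946. Egr1fNesCre+ males 1 to 3, mice HP4939, HP4947 and HP4948, were at 33.3, 31.6 and 23.7 CPM. Both ranges were present in this genotype, 3 mice in each, and in both sexes. Egr1fNesCre- females 1 to 3, mice HP4951, HP4952 and HP4953, were at 19.3, 21.4 and 20.0 CPM. Egr1fNesCre- males 1 to 3, mice HP4935, HP4950 and HP4955, were at 21.2, 30.9 and 15.9 CPM. In Egr1fNesCre- the upper range held 1 of 6 mice, male 2.

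The upper range of *Wdfy1* thus held 5 of 12 HP40 mice and 4 of 12 HP49 mice, 4 of 12 females and 5 of 12 males. By Nestin-Cre it held 8 of 12 mice with the transgene and 1 of 12 without it. The 6 Egr1wtNesCre+ mice carry a run of neighboring numbers, HP4046 to HP4052, and the 5 of them in the upper range are the first 5 of that run. The HP40 mice numbered before and after the run are all Egr1wtNesCre-, so within HP40 the genotype and the place in the number series cannot be told apart. The Egr1fNesCre+ mice likewise carry a run of numbers, HP4939 to HP4948. Only Egr1fNesCre- mice are numbered before and after it, so the same holds within HP49. In the HP49 series the upper mice were HP4939, HP4946, HP4947 and HP4950, with lower mice between them.

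**Figure D2:**
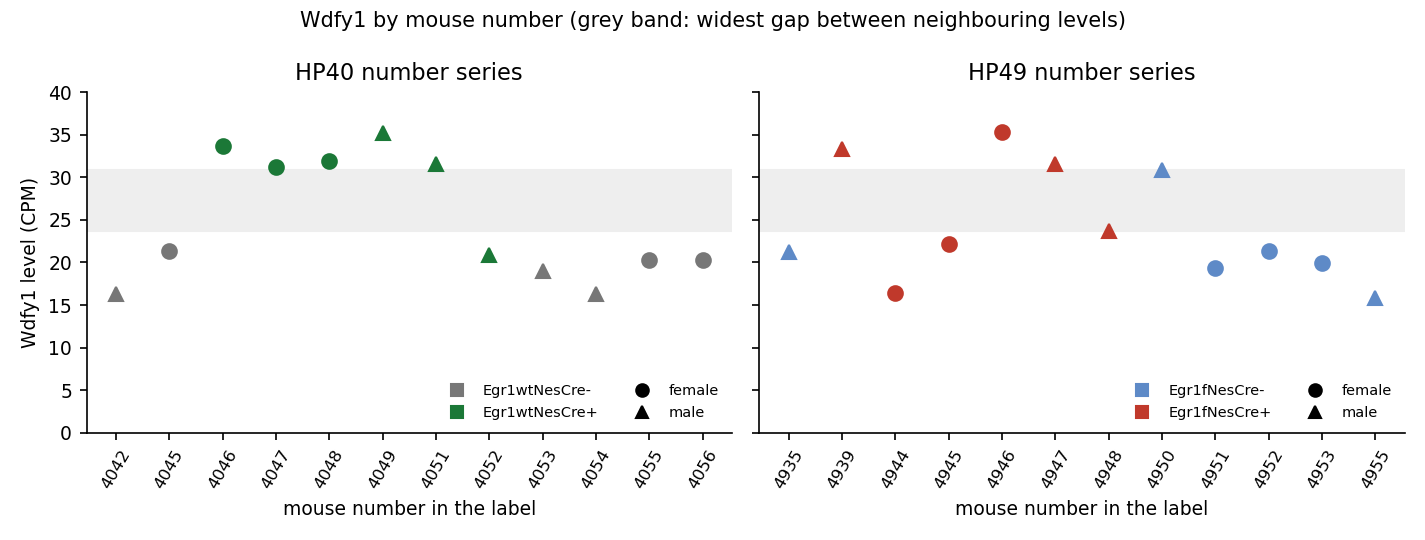
*Wdfy1* level in CPM (y axis, linear, from 0) of each mouse in order of its label number (x axis, not to scale), for the HP40 series (left) and the HP49 series (right), colored by genotype, circles for females and triangles for males. The grey band is the step from 23.7 to 30.9 CPM in which no mouse lies, with 5 of 12 mice above it in HP40 and 4 of 12 in HP49.

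The tests of *Wdfy1* followed these levels. In the floxP term the log2 difference, Egr1f minus Egr1wt, was -0.004 with an SE of 0.114 (adjusted p = 0.999), and its approximate 95% interval ran from -0.23 to 0.22. In the Nestin-Cre term *Wdfy1* was higher with Cre by 0.52 (SE 0.11), a 1.43-fold difference that ranked 14 by p among 18766 genes (unadjusted p = 0.000106, adjusted p = 0.143). Within HP40, Egr1wtNesCre+ mice were above Egr1wtNesCre- mice by 0.70 (SE 0.11), or 1.63-fold, with the lowest p of 18022 genes (unadjusted p = 5.26e-06, adjusted p = 0.0948). Within HP49, Egr1fNesCre+ mice differed from Egr1fNesCre- mice by 0.33 (SE 0.17), or 1.26-fold (adjusted p = 0.355). The difference between these values, the interaction, was -0.36 (SE 0.23, adjusted p = 0.392), so the Nestin-Cre difference was not shown to differ between the series.

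The side of the threshold on which *Wdfy1* fell depended on the tool and on single mice. DESeq2 gave log2 differences of 0.52 in the Nestin-Cre term (adjusted p = 0.0194) and 0.70 within HP40 (adjusted p = 1.09e-05), both past the threshold. Within HP40 edgeR called 0 genes of 18022 (0%), with 1104 at an unadjusted p under 0.05, and DESeq2 called 20 of 14310 (0.14%). In edgeR the adjusted p within HP40 was 0.00205 without Egr1wtNesCre+ male 3, where 1 gene of 18328 was called (0.00546%), and 0.0144 without Egr1wtNesCre+ male 2, where 210 of 18506 were called (1.13%). It stayed between 0.0999 and 0.391 when any of the other 10 mice was left out. For the Nestin-Cre term it was 0.0172 without Egr1fNesCre+ female 1, 0.0274 without Egr1fNesCre- male 2 and 0.0424 without Egr1wtNesCre+ male 3. These fits called 9 of 19103 genes (0.0471%), 8 of 19216 (0.0416%) and 12 of 19060 (0.063%). Without the 4 mice high in choroid plexus markers, the log2 difference of *Wdfy1* was 0.51 in the Nestin-Cre term (adjusted p = 0.240) and 0.69 within HP40 (adjusted p = 0.228). Of these 4 mice 3 were in the upper range of *Wdfy1* and 1, Egr1fNesCre- male 3, had its lowest level. Within HP40 the fit without them left out only Egr1wtNesCre+ female 1 and kept Egr1wtNesCre+ male 3.

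Ranked by Pearson r of log2(CPM + 1) over the 24 mice, *Gm15510* and *Acot1* were among the genes most like *Wdfy1*. Since the levels of *Wdfy1* fall into separate ranges, r is given within each as a description. In the 15 mice of the lower range it was 0.564 for *Gm15510* and 0.649 for *Acot1*, and in the 9 mice of the upper range -0.250 and 0.530. *Acot1*, a thioesterase that frees fatty acids from coenzyme A, rose with Nestin-Cre by 0.30 (SE 0.06) on the log2 scale in edgeR's test (adjusted p = 0.0290). *Gm15510* lies on chromosome 7 and *Acot1* on chromosome 12, neither on the chromosome of *Wdfy1*. In Egr1wtNesCre- mice *Acot1* ran from 14.1 to 15.5 CPM, and in Egr1wtNesCre+ mice from 17.5 to 23.9 CPM, without overlap, and the log2 difference within HP40 was 0.44 (SE 0.09, adjusted p = 0.321). In Egr1fNesCre- mice it ran from 15.8 to 17.6 CPM and in Egr1fNesCre+ mice from 15.7 to 19.6 CPM, which overlap, and the difference within HP49 was 0.15 (SE 0.08, adjusted p = 0.369). Neither number series alone passed the threshold for *Acot1*. *Acot1* was picked for its similarity to *Wdfy1*, whose upper range held mostly mice with the transgene. Its own Nestin-Cre difference is thus not independent of that choice. The share of all genes without overlap between these genotypes was not counted.

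**Figure D3:**
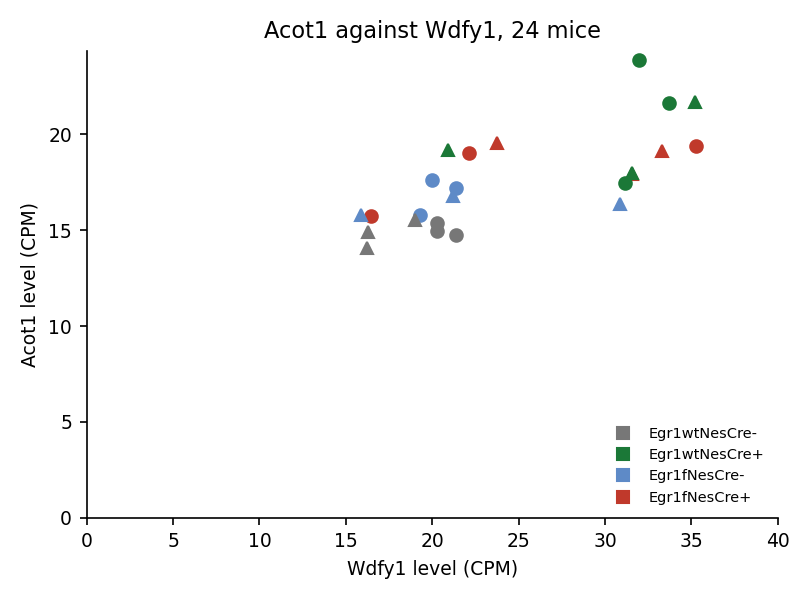
Level of *Acot1* in CPM (y axis) against *Wdfy1* in CPM (x axis), both linear, 1 point per mouse, colored by genotype, circles for females and triangles for males. *Acot1* does not overlap between Egr1wtNesCre- (14.1 to 15.5 CPM) and Egr1wtNesCre+ mice (17.5 to 23.9 CPM) and overlaps between the Egr1f genotypes. *Acot1* was picked for its similarity to *Wdfy1* over these same mice.

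Of 20 genes annotated within 500 kb of *Wdfy1*, 6 were tested, and 0 of 6 were called in the floxP or the Nestin-Cre term. Over all genes 1 of 18766 (0.00533%) and 9 (0.048%) were called in these terms. Counts of 0 in a list or among neighbors, here and below, are thus what most genes give. Of 10 listed genes of the WDFY family and of signaling from endosomal Toll-like receptors, 0 were called in either term, with a median log2 difference of 0.05 for Nestin-Cre against 0.005 over all genes. The lowest unadjusted p of that list for Nestin-Cre was that of *Tlr3*, the receptor for double-stranded RNA, at a log2 difference of 0.22 (SE 0.10, adjusted p = 0.997).

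*Nnt*, the transhydrogenase gene, could not be read as a level of its RNA. On GRCm38, which is a C57BL/6J genome, GENCODE M21 gives it 2 gene models with the same symbol on the minus strand of chromosome 13. The model at 13:119335448-119408997 has 7037 exonic bases and a row in the table. The model at 13:119335528-119408952 has 3339 exonic bases, all inside exons of the first, and has no row. Reads on the shared bases fit both models, and 3698 bases, 52.6% of the first, are its own. Of 51 protein-coding genes that lie wholly within exons of another gene with a row, 1 has a row itself, against 84.1% of all 22028 protein-coding genes.

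The row for *Nnt* held 408 counts over the 24 mice. Egr1fNesCre- female 3 had 1 count, or 0.0547 CPM, with an exact Poisson 95% interval of 0.00139 to 0.305 CPM. Egr1fNesCre- female 1, of the same genotype and sex, had 35 counts, or 1.39 CPM (interval 0.970 to 1.94). These intervals cover counting error only. Both the lowest and the highest count thus came from Egr1fNesCre- females, and the third of them had 5 counts.

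By genotype the lowest, median and highest levels of the *Nnt* row were 0.368, 0.917 and 1.68 CPM in Egr1wtNesCre-, and 0.473, 0.687 and 1.16 CPM in Egr1wtNesCre+. In Egr1fNesCre- they were 0.0547, 0.477 and 1.39 CPM, and in Egr1fNesCre+ 0.612, 0.658 and 0.981 CPM. All 4 ranges overlapped, and the largest step between neighboring mice, 0.20 on the log2(CPM + 1) scale, set apart the single lowest mouse. The floxP term was -0.33 (SE 0.32, adjusted p = 0.966) and the Nestin-Cre term 0.07 (SE 0.31, adjusted p = 0.997). The interval of the floxP term ran from -0.95 to 0.28. With each mouse left out in turn the floxP term ran from -0.64, without Egr1fNesCre- female 1, to -0.23. *Lims1* (r = 0.765), *Pcdhga1* (r = 0.722) and *Gm43593* (r = 0.710) had the levels most similar to this row. These are the highest of 18765 correlations, of which 8 were at least 0.7 in size, and they were not tested. The similar genes of *Ide*, *Fgfbp3* and *Crb1* named below were likewise picked from 18765 and not tested.

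All 15 listed enzymes of mitochondrial NADPH supply and peroxide defence were tested, and 0 passed in the floxP term or in the Nestin-Cre term. Their median log2 difference was 0.02 for floxP and -0.01 for Nestin-Cre, with all values between -0.09 and 0.09. *Glud1*, glutamate dehydrogenase, had the lowest unadjusted p, with a log2 difference of 0.09 for Nestin-Cre (SE 0.04, adjusted p = 0.997).

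*Ide* and *Fgfbp3* share the chromosome 19 locus, 349127 bases apart. *Ide*, a zinc protease that degrades insulin and amyloid beta, is annotated at 19:37268743-37337852 on the minus strand. It was the steadiest of the 6 genes, with a coefficient of variation of 8.65% over the 24 mice. Its lowest, median and highest levels were 47.6, 54.0 and 56.5 CPM in Egr1wtNesCre-, and 42.2, 51.5 and 56.8 CPM in Egr1wtNesCre+. They were 45.6, 51.5 and 56.1 CPM in Egr1fNesCre-, and 46.5, 51.9 and 60.2 CPM in Egr1fNesCre+. The 4 genotypes covered nearly the same range, and the highest mouse was 1.42-fold above the lowest.

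The log2 difference of *Ide* was 0.005 in the floxP term (SE 0.053, adjusted p = 0.998) and -0.02 in the Nestin-Cre term (SE 0.05, adjusted p = 0.997). The intervals ran from -0.10 to 0.11 and from -0.12 to 0.09. The largest step between neighboring mice was 0.11 on the log2(CPM + 1) scale, below which lay 1 mouse, Egr1wtNesCre+ female 3. *Rora* (r = 0.829), *Pcnx4* (r = 0.809) and *Mphosph8* (r = 0.807) had the most similar levels. Of 12 listed proteases of amyloid beta and neuropeptides 0 were called in either term, and their median log2 differences were 0.03 and 0.004.

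*Fgfbp3*, which encodes a secreted protein that binds fibroblast growth factors, is annotated at 19:36917550-36919615 on the minus strand with 1772 exonic bases. Its lowest, median and highest levels were 5.33, 5.91 and 6.91 CPM in Egr1wtNesCre-, and 5.65, 6.86 and 8.40 CPM in Egr1wtNesCre+. In Egr1fNesCre- they were 3.71, 7.48 and 8.04 CPM, and in Egr1fNesCre+ 4.23, 5.74 and 8.36 CPM. The highest mouse was in HP40, and the 2 lowest, Egr1fNesCre- female 2 and Egr1fNesCre+ male 2 of HP49, lay apart from the other 22 by 0.28 on the log2(CPM + 1) scale.

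For *Fgfbp3* the floxP term was -0.02 (SE 0.12, adjusted p = 0.995) and the Nestin-Cre term 0.03 (SE 0.12, adjusted p = 0.997). The interaction was -0.42 (SE 0.23, unadjusted p = 0.0768, adjusted p = 0.319). The Pearson r of *Ide* and *Fgfbp3* over the 24 mice was 0.033 (permutation p = 0.878) and Spearman's rho 0.020 (p = 0.927), and r was -0.0099 without the 2 mice farthest from the median of *Ide*. Within HP40 r was 0.337 and within HP49 -0.137. Of the genes annotated within 500 kb, 10 were tested near *Ide* and 11 near *Fgfbp3*, and 0 were called in either term. *Cpeb3*, a regulator of translation that lies between them, had an r of 0.685 with *Ide* and of -0.179 with *Fgfbp3*. *Cox6b2* (r = 0.718), *Invs* (r = 0.675) and *Myh7b* (r = 0.655) were most like *Fgfbp3*. Of 14 listed FGFs, FGF receptors and FGF binding proteins 0 were called in either term, with median log2 differences of 0.03 and 0.006.

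*Crb1*, a transmembrane protein of the Crumbs complex that sets the apical side of epithelial and glial cells, was at the edge of detection. It is annotated at 1:139197056-139377100 on the minus strand with 14432 exonic bases. Counts ran from 11 to 76 per mouse. Egr1wtNesCre- male 1 had 11, or 0.535 CPM with an exact Poisson 95% interval of 0.267 to 0.957. Egr1fNesCre+ male 3 had 76, or 2.97 CPM (interval 2.34 to 3.71), which was above every other mouse.

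By genotype the lowest, median and highest *Crb1* levels were 0.535, 0.668 and 1.80 CPM in Egr1wtNesCre-, and 0.525, 1.21 and 1.65 CPM in Egr1wtNesCre+. They were 0.676, 0.929 and 1.49 CPM in Egr1fNesCre-, and 0.550, 1.09 and 2.97 CPM in Egr1fNesCre+. All 4 ranges overlapped. The floxP term was 0.18 (SE 0.28, adjusted p = 0.981) and the Nestin-Cre term 0.47 (SE 0.28, unadjusted p = 0.107, adjusted p = 0.997). With each mouse left out in turn, the Nestin-Cre term stayed between 0.28 and 0.62. *Fggy* (r = 0.718), *Fam214b* (r = 0.706) and *Tmem132e* (r = 0.697) had the most similar levels. Of 12 listed genes of the Crumbs and Par complexes 0 were called in either term. *Pard3*, a scaffold of the Par complex, had the lowest unadjusted p, at 0.16 for floxP (SE 0.06, adjusted p = 0.895). Within 500 kb of the other 3 genes, 11 neighbors of *Nnt*, 6 of *Crb1* and 11 of *Cyfip2* were tested, and 0 were called in either term.

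*Cyfip2*, a subunit of the WAVE complex that drives actin branching and a partner of FMRP, was by far the most abundant of the 6 genes. It is annotated at 11:46193850-46312859 on the minus strand with 7103 exonic bases. Per kilobase of exon its median level was 146.7 CPM, against 6.92 for *Ide*, 3.59 for *Fgfbp3*, 3.29 for *Wdfy1*, 0.0935 for the *Nnt* row and 0.0704 for *Crb1*. The ranges of *Fgfbp3* and *Wdfy1* per kilobase overlapped, 2.09 to 4.74 and 2.45 to 5.43, as did those of the *Nnt* row and *Crb1*.

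*Cyfip2* was at 1282, 1213 and 1233 CPM in Egr1fNesCre+ females 1 to 3, and at 1238, 1165 and 946 CPM in Egr1fNesCre+ males 1 to 3. In Egr1fNesCre- its lowest, median and highest levels were 894.4, 912.3 and 1165 CPM. In Egr1wtNesCre- they were 1015, 1057 and 1196 CPM, and in Egr1wtNesCre+ 853.1, 929.2 and 1261 CPM. Of the 6 Egr1fNesCre+ mice 5 lay at or above 1165 CPM, and male 3 lay below, while 1 mouse in each other genotype reached that level or higher.

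The interaction of floxP and Nestin-Cre for *Cyfip2* was 0.41 (SE 0.13), with an unadjusted p of 0.00278 and an adjusted p of 0.152 in edgeR. DESeq2 gave 0.41 with an adjusted p of 0.0438, on the other side of the threshold. That adjustment was over the 3250 genes left by its own filtering, of which 335 were called (10.3%). In edgeR it was 0.51 without Egr1wtNesCre+ male 2 (adjusted p = 0.0195), a fit that called 1482 genes of 19239 (7.7%). Without Egr1fNesCre- male 1 it was 0.47 (adjusted p = 0.0477), with 381 of 19090 called (2%). In the 12 females alone it was 0.57 (adjusted p = 0.0353), with 354 of 18870 called (1.88%), and in the 12 males alone 0.25 (adjusted p = 0.929), a contrast that was not tested. Within HP49 Egr1fNesCre+ mice were above Egr1fNesCre- mice by 0.26 (SE 0.09, adjusted p = 0.262), where 4 genes of 18074 were called (0.0221%). Within HP40 the Nestin-Cre difference was -0.15 (SE 0.09, adjusted p = 0.763). The adjusted p within HP49 was 0.0407 without Egr1fNesCre- male 1, where 335 of 18495 genes were called (1.81%). Within HP40 it was 0.0417 without Egr1wtNesCre+ male 2, where 210 of 18506 were called (1.13%).

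Egr1fNesCre+ mice were above Egr1wtNesCre+ mice by 0.27 (SE 0.10, adjusted p = 0.359), with 1 gene of 17909 called (0.00558%). Without Egr1wtNesCre+ male 2 the difference was 0.38 (adjusted p = 0.0144), in a fit that called 846 of 18379 genes (4.6%). Egr1fNesCre- mice differed from Egr1wtNesCre- mice by -0.13 (SE 0.07, adjusted p = 0.543), with 0 of 18220 genes called (0%), 1716 at an unadjusted p under 0.05 and 2 called by DESeq2. The floxP term of *Cyfip2* was 0.08 (SE 0.06, adjusted p = 0.963) and the Nestin-Cre term 0.06 (SE 0.06, adjusted p = 0.997).

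*Cyfip2* moved with many other genes. Of 18765 genes, 212 had a Pearson r with it of at least 0.9, and the most similar were *Sipa1l1* (r = 0.980), *Atrn* (r = 0.974) and *Prrc2b* (r = 0.966). The first principal component of all kept genes held 16.7% of the variance, and the r of *Cyfip2* with it was 0.946, against 0.641 for *Ide*, 0.448 for the *Nnt* row, -0.103 for *Crb1* and -0.197 for *Fgfbp3*. The part of that component in the *Cyfip2* differences was not tested. Of 14 listed genes of the WAVE complex and partners of FMRP 0 were called in either term, with median log2 differences of 0.02 for floxP and -0.02 for Nestin-Cre. *Nckap1l*, the WAVE subunit of blood and microglial cells, had a floxP difference of 0.31 (SE 0.07, unadjusted p = 0.000198, adjusted p = 0.895).

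**Figure D4:**
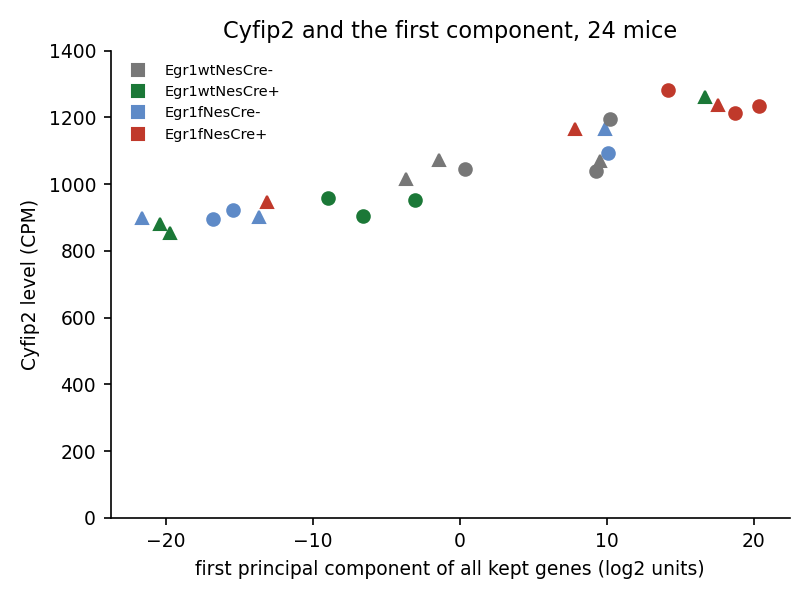
*Cyfip2* level in CPM (y axis, linear, from 0) against the score of each mouse on the first principal component of all kept genes (x axis, log2 units, signed so that *Cyfip2* rises with it), colored by genotype, circles for females and triangles for males. The points rise together (r = 0.946 on the log2 scale), from 853.1 to 1282 CPM.

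Among the 10 pairs without *Wdfy1*, no Pearson or Spearman correlation over the 24 mice had an adjusted permutation p under 0.05. The largest Pearson values were those of *Ide* with *Cyfip2* (r = 0.466, p = 0.0220, adjusted p = 0.139, rho 0.483, p = 0.0176, adjusted p = 0.0984) and *Nnt* with *Ide* (r = 0.434, p = 0.0339, adjusted p = 0.139, rho 0.440, p = 0.0323, adjusted p = 0.108). Without the 2 mice farthest from the median of the first gene they were 0.414 and 0.340. Within HP40 and HP49 the r of *Ide* with *Cyfip2* was 0.344 and 0.575, and that of *Nnt* with *Ide* 0.418 and 0.487. *Nnt* with *Crb1* had a rho of -0.477 (p = 0.0197, adjusted p = 0.0984) and an r of -0.399 (p = 0.0542, adjusted p = 0.139), which was -0.664 within HP40 and -0.188 within HP49.

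Of the other loci with known differences among C57BL/6 stocks that were tested, 0 were called in the floxP or the Nestin-Cre term. Over all genes 1 of 18766 (0.00533%) and 9 (0.048%) were called, so this count says little about these loci. Among such genes *Gabra2* and *Dock2* were tested, and *Nlrp12* fell below the filter on low counts. *Gabra2*, a GABA-A receptor subunit whose level is lowered by an intronic deletion in C57BL/6J, was at 94.98 to 147.3 CPM in HP40 and 110.8 to 143.3 CPM in HP49. Its floxP term was 0.04 (SE 0.06, adjusted p = 0.978), and the ranges of the series overlapped nearly whole. *Dock2*, a guanine nucleotide exchange factor of blood cells, had a floxP difference of 0.38 (SE 0.12, unadjusted p = 0.00507, adjusted p = 0.895).

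**Figure D5:**
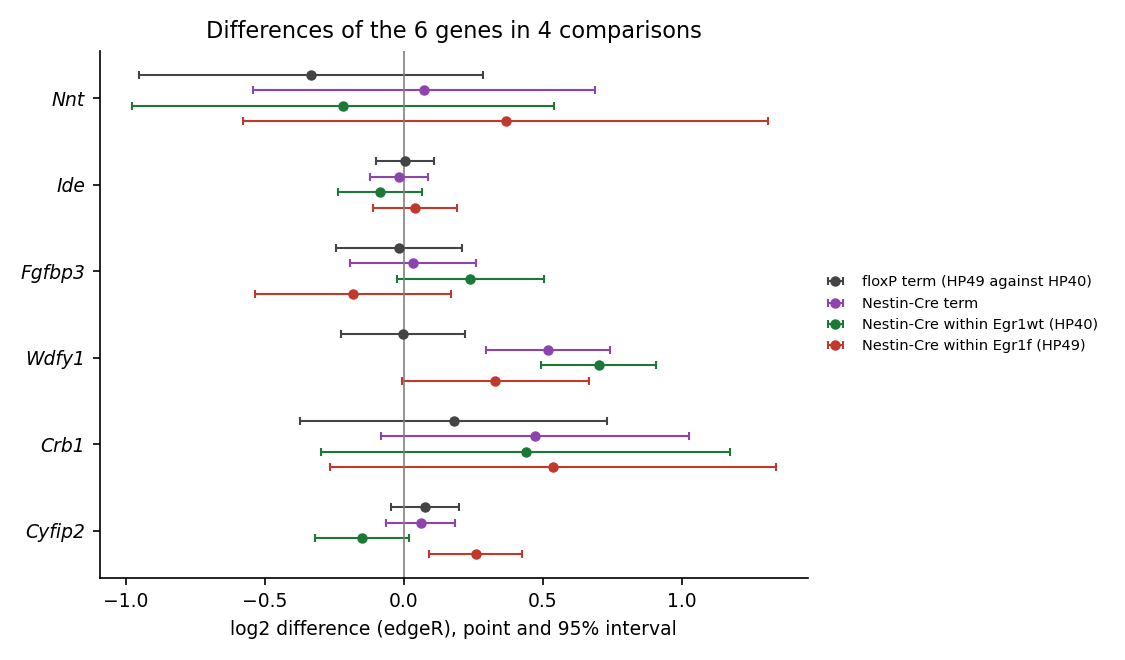
Log2 difference in edgeR (x axis) with bars for the approximate 95% interval for each of the 6 genes (y axis) in the floxP term, the Nestin-Cre term and the Nestin-Cre comparison within each number series. The *Wdfy1* intervals for Nestin-Cre (0.29 to 0.74) and for Nestin-Cre within HP40 (0.49 to 0.91) and that of *Cyfip2* within HP49 (0.09 to 0.43) lie above 0, while no difference shown passed the threshold after adjustment over all genes.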

How the data were processed

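Hippocampal RNA was sequenced from 24 mice in non-stranded, paired-end libraries. The authors trimmed the reads with Trim Galore and mapped and counted them with STAR on GRCm38 (mm10), and they deposited whole-number counts per gene without normalization. The submitters' processing notes give Trim Galore 3.8.2 and STAR 2.7.9, and the paper gives other versions. The counting annotation is not given in the sources used here, and 112 of 36605 identifiers lie above the highest in GENCODE M21, which supplied symbols and positions for the other 36493. The 24 columns were matched to mice by their label numbers, and groups, sex and replicate numbers came from the labels. The 6 genes, the gene lists and the tests were chosen with earlier results of these data known.

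The counts were tested in R 4.3.3 with edgeR 4.0.16 (filterByExpr with a minimum count of 10, TMM, quasi-likelihood F test, Benjamini-Hochberg adjustment), in a model of floxP, Nestin-Cre, their interaction and sex, and in 4 pairwise fits with sex. An SE is the size of the log2 difference divided by the square root of F. Only the fixed effects of the study's mixed model were fitted, and its pairwise tool, DESeq2 (1.42.0 here), was an alternative. On simulated data with 200 of 18766 genes changed 2-fold, 76% were called in the floxP term, 79.5% in the Nestin-Cre term and 65% in the HP40 pair. Counts were drawn independently for each gene, and smaller changes were not simulated. These shares thus do not cover smaller differences or genes that move together over mice. Permutation tests of correlations were two-sided with 100000 draws. No 2 mice of a group differed by as little as counting noise, the closest pair by 4.79 times its variance. Named genes were the 6, *Egr1*, and the 3 genes most like each over the 24 mice, with listed or neighboring genes as counts and named where called. Some genes that this rule names or the lists hold are not reported here. Listed genes named with a lowest unadjusted p, the other substrain loci, markers named alone and neighbors named by r were picked after their values were seen.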

Additional observations from a re-analysis of the deposited data

Results flagged for a closer look

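In genotype groups of 6 mice, 6 levels stood apart, in that the gap to the next mouse was a larger share of the group's range than Dixon's 95% critical value. There were 24 groups, and chance sets apart about 1 in 20 groups. *Wdfy1* was low in Egr1wtNesCre+ male 3 (20.9 CPM, gap 0.715 of the range) and high in Egr1fNesCre- male 2 (30.9 CPM, 0.634). *Fgfbp3* was low in Egr1fNesCre- female 2 (3.71 CPM, 0.635). *Cyfip2* was high in Egr1wtNesCre- female 2 (1196 CPM, 0.686) and in Egr1wtNesCre+ male 2 (1261 CPM, 0.740) and low in Egr1fNesCre+ male 3 (946 CPM, 0.653). For *Wdfy1*, both mice lie across the step between the lower and the upper range from most mice of their genotype.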

How the results depend on the processing

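The low counts of the *Nnt* row and *Crb1* limit what could be detected for them. Genes called, of the 8 comparisons in the order floxP, Nestin-Cre, interaction, sex, Egr1fNesCre- against Egr1wtNesCre-, Egr1fNesCre+ against Egr1wtNesCre+, Nestin-Cre within HP40 and Nestin-Cre within HP49, were 1, 9, 1, 14, 0, 1, 0 and 4 in edgeR. With DESeq2 they were 9, 18, 335, 17, 2, 30, 20 and 81, and without the filter on low counts 97, 191, 1173, 111, 173, 529, 156 and 868. In females alone the first 3 were 6, 2 and 354 and in males alone 1, 1 and 1, and without the interaction term the first 2 were 0 and 6. In the 20 mice with a choroid plexus sum of at most 500 CPM, an alternative chosen after seeing the data, they were 1, 5, 1, 9, 0, 2, 0 and 1. With each mouse left out in turn they ran from 1 to 2, 5 to 12, 1 to 1482, 10 to 15, 0 to 1, 1 to 846, 0 to 210 and 1 to 335. The highest counts came without Egr1wtNesCre+ male 2 for the interaction, the HP40 pair and the contrast of the Cre carriers, and without Egr1fNesCre- male 1 for the HP49 pair (and 381 for the interaction). With the replicate number as a block 8 genes were called in the HP49 pair, and no call of the 6 genes changed. The numbers did not pair the mice: deviations of mice with the same number had a mean r of -0.003 and were over 0.1 in 17 of 84 pairs, against 39 of 168 with different numbers.

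For the 6 genes, without the low count filter *Wdfy1* passed the threshold in the Nestin-Cre term and in both number series (adjusted p = 1.86e-10, 3.61e-09 and 0.0373), as did *Cyfip2* for the interaction (0.0102) and within HP49 (0.0387). These fits called more genes in all, 191 of 36605 (0.522%) for Nestin-Cre, 156 of 34221 (0.456%) within HP40 and 868 of 34293 (2.53%) within HP49. For the interaction they called 1173 of 36605 (3.2%). The Nestin-Cre log2 difference of *Wdfy1* stayed at 0.52, while its SE fell from 0.11 to 0.07. Signs turned only for differences that were not called. In the floxP term they were 0.20 for *Wdfy1*, -0.0308 for *Ide* and 0.135 for *Fgfbp3* in males alone, -0.00012 for *Ide* with DESeq2 size factors, -0.00070 for *Ide* with the replicate block and 0.0274 for *Fgfbp3* without the 4 mice high in choroid plexus markers. In the Nestin-Cre term they were -0.0692 for *Nnt* and -0.0710 for *Fgfbp3* in males alone, 0.00212 for *Ide* in females alone and -0.12 for *Nnt* without those 4 mice. With each mouse left out the floxP term ran from -0.0734 to 0.0573 for *Wdfy1*, -0.0263 to 0.0207 for *Ide*, -0.0755 to 0.0424 for *Fgfbp3* and -0.0212 to 0.335 for *Crb1*, and the Nestin-Cre term from -0.0422 to 0.404 for *Nnt*, -0.0402 to 0.00347 for *Ide* and -0.0347 to 0.0767 for *Fgfbp3*. Causes were not tested. The step in *Wdfy1* set the same number of mice apart, 15 and 9, on all 4 scales, at 32.9% to 36.8% of the range.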
